A study of Mus musculus with 116 samples.

Results

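Tbx1, Tbx2, Tbx3, Tbx4, Tbx5, Tbx15, Tbx18 and Tbx20 are 8 T-box genes whose usual places of expression lie outside the neurons of the cerebral cortex. They were followed by name in sorted cortical cells with and without Eed, as 8 of the 53379 genes in the deposited count tables. Tbr1 and Eomes, the T-box genes that cortical neurons and their progenitors normally use, were left out of the 8 and serve as a contrast below. In green cells without Eed from a cortex that lacked Eed throughout, Tbx3, Tbx5, Tbx1 and Tbx15 were higher than in control cells at E16 and P0, and Tbx18 was higher at P0. Of these differences, those of Tbx1 at P0 and of Tbx15 at E16 no longer passed with a second test tool (DESeq2) or with some single libraries left out. In green cells without Eed that sat sparsely in a heterozygous cortex, Tbx3 alone of the 8 passed the test, at P0, at a level of 3.14 CPM ± 1.48 (SD, n = 9) against 27.0 CPM ± 8.19 (SD, n = 4) in the fully mutant cortex.

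T-box factors are transcription factors that bind DNA through a shared domain, the T-box, and that act in embryos to set the identity of tissues such as heart, limb, body wall and pharynx. Most of their genes are silent in the developing forebrain, where Polycomb repressive complex 2 (PRC2) is known to place trimethylation of lysine 27 on histone H3 over genes for regulators of other tissues. EED is a core subunit of PRC2, and the complex cannot keep up this mark without it.

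The study used mosaic analysis with double markers (MADM), in which recombination between cassettes on chromosome 7 labels single dividing cells and their offspring green, red or yellow. Emx1-Cre, active in the progenitors of cortical projection neurons, drove both the recombination and the deletion of a floxed Eed allele. Sorted cells from cortices that were pooled by 2 to 3 animals were sequenced as bulk Smart-Seq2 libraries, so that a library is a pool and not an animal. The p-values therefore measure the spread between these pools. All cells of control-MADM are Eed+/+, all labelled cells of cKO-Eed-MADM (cKO in the labels) are Eed-/-, and in Eed-MADM (het in the labels) the green cells are Eed-/- within heterozygous tissue. Green cells of all 3 paradigms also carry 2 paternal copies of chromosome 7, on which Eed lies and none of the 8 genes does. The label gives the strain as CD1, where the methods describe a mixed background. Of 68 green libraries, 55 had at least 1000000 uniquely aligned reads that made up at least 60% of all reads. Control-MADM had 5 of them at embryonic day 12 (E12), 2 at E13, 3 at E16 and 5 at birth (P0). Eed-MADM had 8, 2, 5 and 9 at these ages, and cKO-Eed-MADM had 4 at each. Cells of E12 were collected in another buffer than those of the later ages, so that this age and its collection cannot be told apart.

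The promoters of the 8 genes are shown first because PRC2 acts mainly at stretches of DNA rich in the dinucleotide CpG. RefSeq start sites with sequence were at hand for 4 of the 8 genes (Tbx1, Tbx4, Tbx18 and Tbx20, build GRCm38.p6). Tbx2, Tbx3, Tbx5 and Tbx15 are named only. Each line gives the 250 bases before a start site, 5′ to 3′ on the strand of the gene, with every CpG in capitals.
Tbx1, chr16:18590672-18590921, minus strand: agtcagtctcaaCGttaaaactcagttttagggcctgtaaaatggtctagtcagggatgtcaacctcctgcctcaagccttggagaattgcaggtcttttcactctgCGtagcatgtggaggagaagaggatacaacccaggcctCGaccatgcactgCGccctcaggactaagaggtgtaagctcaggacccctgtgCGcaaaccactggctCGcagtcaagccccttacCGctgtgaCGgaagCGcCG
Tbx4, chr11:85896515-85896764, plus strand: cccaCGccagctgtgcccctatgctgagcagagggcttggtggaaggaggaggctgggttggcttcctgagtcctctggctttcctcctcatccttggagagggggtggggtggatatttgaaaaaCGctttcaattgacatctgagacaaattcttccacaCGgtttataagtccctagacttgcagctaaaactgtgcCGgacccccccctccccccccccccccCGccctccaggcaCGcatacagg
Tbx18, chr9:87731261-87731510, minus strand: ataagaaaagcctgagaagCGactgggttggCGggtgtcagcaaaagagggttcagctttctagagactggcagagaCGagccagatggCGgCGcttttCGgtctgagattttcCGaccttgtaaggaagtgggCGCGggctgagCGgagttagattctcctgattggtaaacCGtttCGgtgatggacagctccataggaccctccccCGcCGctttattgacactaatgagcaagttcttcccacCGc
Tbx20, chr9:24774304-24774553, minus strand: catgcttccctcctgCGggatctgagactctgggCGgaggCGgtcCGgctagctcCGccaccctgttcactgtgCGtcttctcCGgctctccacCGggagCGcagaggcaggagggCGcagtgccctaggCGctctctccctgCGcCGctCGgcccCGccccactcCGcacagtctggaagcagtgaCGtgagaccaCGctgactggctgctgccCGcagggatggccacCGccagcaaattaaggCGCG

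The Tbx20 window was the richest of the 4 in CpG, with 22 sites and 68.8% G+C. Tbx18 followed with 15 sites and 54% G+C, Tbx1 with 10 sites and 54.4%, and Tbx4 with 6 sites and 58.4%. Against the number that its base content would give, the share of CpG was 0.749 for Tbx20, 0.836 for Tbx18, 0.541 for Tbx1 and 0.285 for Tbx4. The median over all 32851 RefSeq promoters of this length was 0.373, and 30.8% of them had over 50% G+C with a ratio over 0.6, as Tbx18 and Tbx20 did. The Tbx4 start site lies inside the annotated gene, and the Tbx18 window overlaps an exon of the antisense transcript D030062O11Rik. A second RefSeq start site of Tbx1 further inside the gene (window chr16:18588900-18589149) had 17 CpG sites, 67.2% G+C and a ratio of 0.603.

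Short motifs were searched in these windows on both strands. The T-box half-site GGTGTGA, found in 3.33% of all promoters, did not occur in any of the 5 windows. TATAAA, found in 12.4% of promoters, occurred once, 85 bases before the Tbx4 start site. CCAAT, found in 33.8%, occurred once, 87 bases before the Tbx18 start site. GGGCGG, found in 32.7%, occurred 219 and 95 bases before the Tbx20 start site, 24 bases before that of Tbx4 and 91 bases before the inner start site of Tbx1. These matches are descriptions of letters and carry no measurement of binding.

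Levels are given as reads or as CPM, that is reads of a gene per 1000000 reads on genes of its library after TMM scaling. Libraries held 865832 to 2359317 reads on genes at E12, 4459314 to 6350596 at E13, 3654056 to 7249098 at E16 and 2784557 to 6275743 at P0. Eed, the deleted gene, stood at 39.2 CPM ± 9.13 (SD, n = 3) in control-MADM at E16, 16.9 CPM ± 4.06 (SD, n = 5) in Eed-MADM and 18.2 CPM ± 5.76 (SD, n = 4) in cKO-Eed-MADM. At P0 it stood at 29.7 CPM ± 2.63 (SD, n = 5), 15.6 CPM ± 3.19 (SD, n = 9) and 11.8 CPM ± 3.29 (SD, n = 4). No mutant library at E16 or P0 reached the lowest control, and part of the transcript was still read in the mutant cells. At E12 Eed-MADM libraries reached up to 88.9 CPM, above the lowest control at 81.1 CPM, and cKO-Eed-MADM libraries up to 47.7 CPM. The paper also left out libraries with high counts in the deleted part of Eed, which was not done here. All 10 cortical identity genes were read in every group from E13 on. Tests used the edgeR quasi-likelihood test with Benjamini-Hochberg adjustment over all genes tested at an age, and a gene was called at an adjusted p under 0.05.

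**Figure D1:**
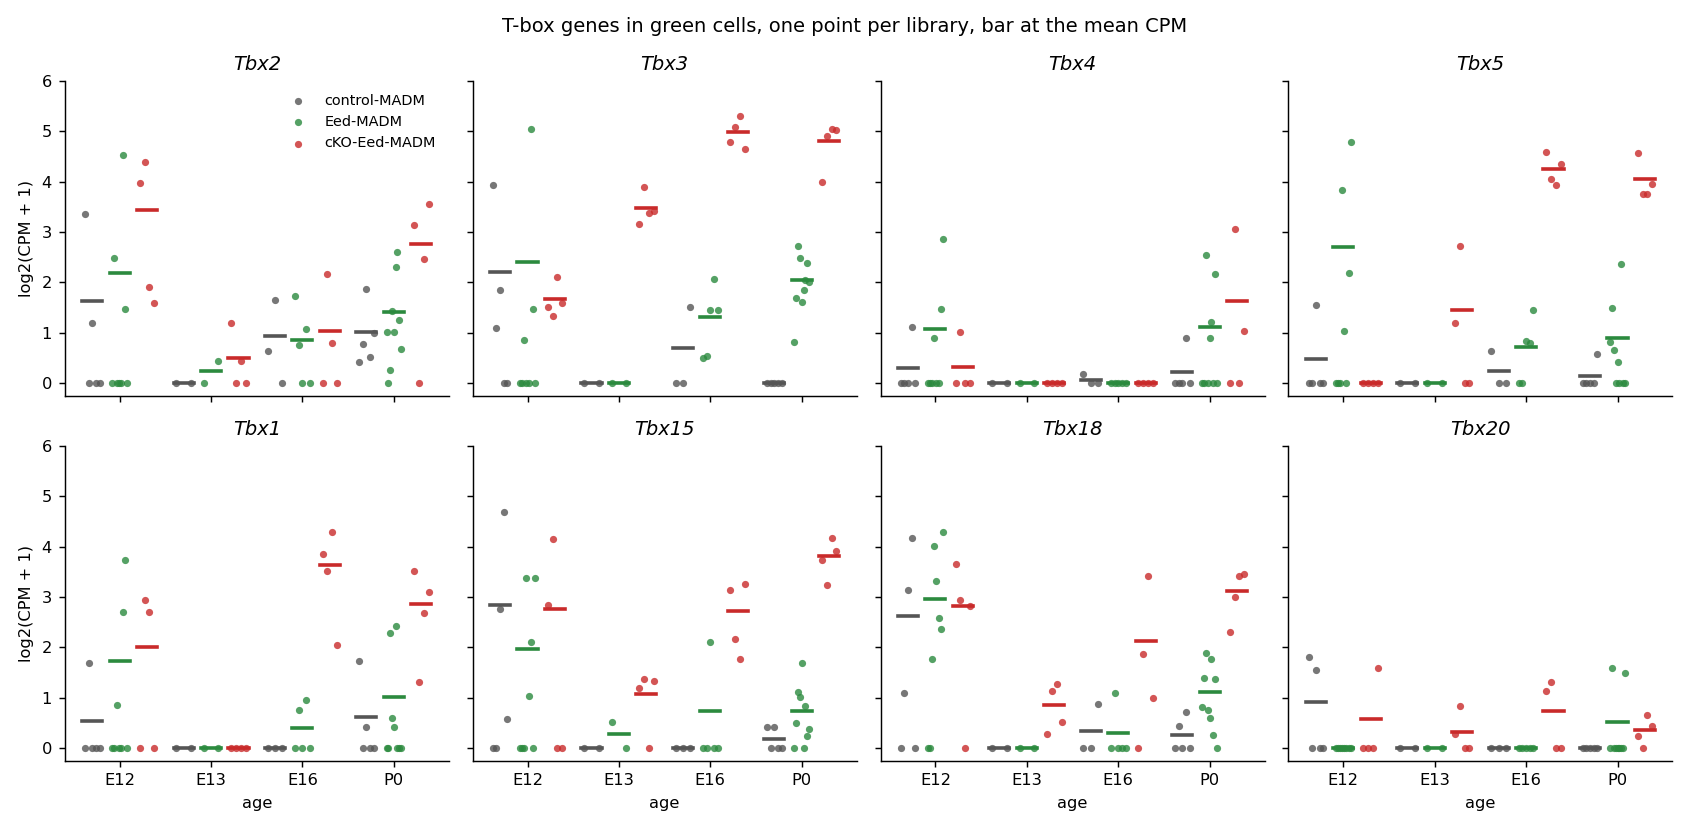
Level of each of the 8 T-box genes in every green library, by age and paradigm, as log2(CPM + 1) on the vertical axis, with a bar at the group mean. At E16 and P0 the cKO-Eed-MADM points of Tbx3 and Tbx5 lie above all control-MADM and Eed-MADM points, whereas the points of E12 scatter in all 3 paradigms.

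Taken over all 8 genes, a read was present in 32.5% of gene and library pairs in control-MADM at P0, 65.3% in Eed-MADM and 87.5% of them in cKO-Eed-MADM. The same shares were 25%, 37.5% and 71.9% at E16 and 0%, 12.5% and 53.1% at E13. The summed level of the 8 genes lay between 1.06 and 3.33 CPM in the 5 control libraries at P0, between 3.31 and 19.0 CPM in the 9 Eed-MADM libraries and between 66.2 and 90.1 CPM in the 4 cKO-Eed-MADM libraries. At E16 it lay between 1.24 and 2.69 CPM, between 2.73 and 5.96 CPM and between 56.4 and 84.4 CPM. The ranges of control-MADM and Eed-MADM met or lay close to each other at both ages, and the cKO-Eed-MADM libraries stood apart from both.

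The comparison of cKO-Eed-MADM with control-MADM asks what loss of Eed in the whole cortex does. At E13, 0 of the 8 genes were called, where 0.0297% of all genes tested were called higher, and only Tbx3 had counts high enough for the test (a mean count over 10). With edgeR 1384 genes had an unadjusted p under 0.05 in this comparison, and DESeq2 called Tbx3. At E16, 4 of the 8 were called higher (Tbx1, Tbx3, Tbx5 and Tbx15), against 6.16% of all genes tested, and the other 4 had too few reads for the test. At P0, 5 of the 8 were called higher (Tbx1, Tbx3, Tbx5, Tbx15 and Tbx18), against 14.2% of all genes tested. Tbx2 was tested at P0 and not called by edgeR, but was called by DESeq2, with all green libraries and with the newer quasi-likelihood test, and Tbx4 and Tbx20 had too few reads. Without replicate 3 or replicate 4 of cKO-Eed-MADM the count at P0 was 3 (Tbx3, Tbx5 and Tbx15), since Tbx1 and Tbx18 then had too few reads for the test. A gene read mainly in 1 paradigm enters the test through that paradigm, so the counts describe the genes and are not read as a share.

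The comparison of Eed-MADM with control-MADM asks what loss of Eed in single cells does when most of the tissue keeps a functional copy. No member was called at E13 or E16, where 0% and 0.24% of all genes tested were called higher with edgeR. In those comparisons 824 and 1406 genes had an unadjusted p under 0.05, and DESeq2 called 0 of the 8 as well. At P0, 1 of the 8 was called higher, Tbx3, against 1.52% of all genes tested. The comparison of cKO-Eed-MADM with Eed-MADM sets green Eed-/- cells of 2 surroundings side by side. It called 0 of the 8 at E13 (background 0.0149%, with p under 0.05 before adjustment for 672 genes, and Tbx3 called by DESeq2), 3 at E16 (Tbx1, Tbx3 and Tbx5, background 4.45%) and 4 at P0 (Tbx3, Tbx5, Tbx15 and Tbx18, background 11.2%), all higher in cKO-Eed-MADM. The 3 comparisons of an age share libraries, so they are not independent of each other.

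**Figure D2:**
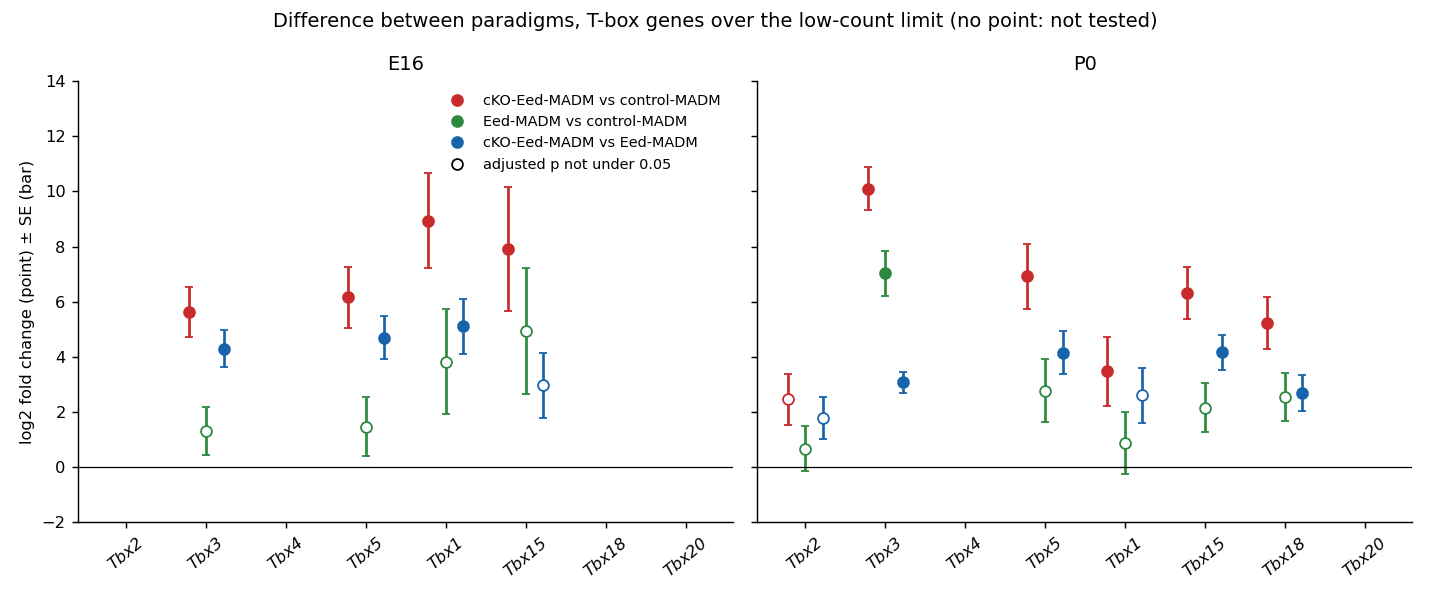
Log2 fold change ± SE of the T-box genes tested at E16 and P0, for cKO-Eed-MADM and Eed-MADM each against control-MADM and for cKO-Eed-MADM against Eed-MADM, with filled points for genes called at an adjusted p under 0.05. At both ages the points of cKO-Eed-MADM against control-MADM lie above those of Eed-MADM against control-MADM for the same gene. Where no green control library held a read (Tbx1 and Tbx15 at E16, Tbx3 at P0) the fitted value depends on the small count added in the fit.

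Tbx3 and Tbx2 are closely related repressors that are known to act in limb, mammary gland and the conduction system of the heart. Tbx3 lies at chr5:119670669-119684724 on the plus strand. At E13 it had 0 reads in both green control libraries and in both green Eed-MADM libraries. The 4 cKO-Eed-MADM libraries held 37, 69, 53 and 44 reads, or 7.89, 13.8, 9.45 and 9.65 CPM. Every cKO-Eed-MADM library thus stood above the others, and the level was at least 39.4-fold that of control-MADM (where a whole group held no read, 3 reads over the group were taken as the floor of the fold). The difference was not called, with an adjusted p of 0.0612 in edgeR and 2 control libraries. It was called with DESeq2 and in 8 further settings, given in the closing part.

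At E16 Tbx3 had 0, 0 and 9 reads in the control libraries (0, 0 and 1.86 CPM) and 2, 2, 11, 17 and 10 reads in Eed-MADM (0.42 to 3.17 CPM). The 4 cKO-Eed-MADM libraries held 132, 199, 206 and 123 reads, or 26.6, 33.0, 38.6 and 24.2 CPM. The control and Eed-MADM libraries overlapped, and all cKO-Eed-MADM libraries lay above both. Tbx3 was 5.62 log2 units higher in cKO-Eed-MADM than in control-MADM (SE 0.91, edgeR adjusted p = 0.000407) and 4.30 higher than in Eed-MADM (SE 0.66, edgeR adjusted p = 0.000242). The control level rests on the 9 reads of 1 library, and with single libraries left out the first difference ran from 4.91 to 10.35 log2 units, the highest without that library, where the fitted value depends on the small count added in the fit. Eed-MADM differed from control-MADM by 1.31 log2 units (SE 0.88, edgeR adjusted p = 0.654).

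At P0 Tbx3 had no read in the 5 green control libraries, which allows a level of up to 0.106 CPM over the group, for counting error only. All 9 Eed-MADM libraries held reads, with a lowest value of 0.763, a median of 3.01 and a highest value of 5.63 CPM. The cKO-Eed-MADM libraries held 82, 79, 165 and 180 reads, or 14.8, 29.2, 32.2 and 31.7 CPM. The 3 groups did not overlap, and Eed-MADM lay between the other two. Tbx3 was at least 251-fold higher in cKO-Eed-MADM than in control-MADM (edgeR adjusted p = 1.67e-08) and at least 30.6-fold higher in Eed-MADM (edgeR adjusted p = 3.17e-05). The difference between the mutant paradigms was 3.08 log2 units (SE 0.38, edgeR adjusted p = 8.36e-06). Of the 8 genes at P0, Tbx3 was the one whose 3 groups were apart from each other. The share of all genes whose groups were apart in this way was not counted, so this describes Tbx3 only.

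Tbx2 lies at chr11:85832551-85841948 on the plus strand and was read at low levels in all paradigms. At E16 its reads were 4, 8 and 0 in control-MADM, and 11, 3, 0, 6 and 0 in Eed-MADM. In cKO-Eed-MADM they were 0, 21, 4 and 0, and the groups overlapped. At P0 the control libraries held 2, 4, 16, 2 and 6 reads and the Eed-MADM libraries a median of 6 reads with a highest value of 26. In cKO-Eed-MADM the libraries held 43, 0, 23 and 61 reads, or 7.79, 0, 4.49 and 10.7 CPM, so that 3 of 4 lay above every control and 1 held none. Its difference from control-MADM at P0 was 2.47 log2 units (SE 0.93, edgeR adjusted p = 0.0545), short of the threshold, and from Eed-MADM 1.79 (SE 0.77, edgeR adjusted p = 0.105). Without the cKO-Eed-MADM library that held no read, Tbx2 was called in both comparisons.

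Tbx5 and Tbx4 are the limb factors of the family, Tbx5 in the forelimb and Tbx4 in the hindlimb, and Tbx5 is also a central factor of the heart. Tbx5 lies at chr5:119832668-119885219, 148 kb from Tbx3 on the same strand. At E13 it was read in 2 of 4 green cKO-Eed-MADM libraries, with 6 and 28 reads, and in no other green library of that age. Among red and yellow libraries of E13, 2 of cKO-Eed-MADM held 17 reads in all, 2 of Eed-MADM 3 and 1 of control-MADM 1. At E16 its reads were 4, 0 and 0 in control-MADM and 0, 0, 5, 4 and 10 in Eed-MADM. The cKO-Eed-MADM libraries held 115, 94, 76 and 99 reads, or 23.1, 15.6, 14.2 and 19.5 CPM, all above every library of the other paradigms. Tbx5 was 6.16 log2 units higher than in control-MADM (SE 1.10, edgeR adjusted p = 0.000972) and 4.69 higher than in Eed-MADM (SE 0.78, edgeR adjusted p = 0.000566). Here too the control level rests on 1 library, with 4 reads, and the first difference ran from 5.66 to 9.54 log2 units with single libraries left out, the highest without that library.

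At P0 a single control library held 3 Tbx5 reads and the other 4 none. In Eed-MADM 5 of 9 libraries held reads, with a median of 0.341 and a highest value of 4.13 CPM. Libraries of cKO-Eed-MADM held 126, 34, 64 and 83 reads, or 22.8, 12.6, 12.5 and 14.6 CPM, and none of them overlapped the other groups. The ratio of reads to control-MADM was 152 (95% exact interval 51.6 to 742, counting error only), with an edgeR adjusted p of 0.000126. For Eed-MADM the ratio to control-MADM was 8.07 (95% exact interval 2.56 to 40.9, counting error only), and the spread between libraries left this difference short of the threshold (edgeR adjusted p = 0.213). The mutant paradigms differed by 4.15 log2 units (SE 0.78, edgeR adjusted p = 0.000459).

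Tbx4 lies 44.5 kb from Tbx2, at chr11:85886422-85916097 on the plus strand. In green libraries it had no read at E13, and 1 read in 1 control library at E16. At P0 it was read in 1 of 5 control libraries (4 reads), in 4 of 9 Eed-MADM libraries (25, 5, 6 and 20 reads) and in 2 of 4 cKO-Eed-MADM libraries (20 and 6 reads). The groups overlapped at zero, and the gene stayed under the filter on low counts. Its mean at P0 was 0.172 CPM ± 0.385 (SD, n = 5) in control-MADM, 1.17 CPM ± 1.80 (SD, n = 9) in Eed-MADM and 2.11 CPM ± 3.56 (SD, n = 4) in cKO-Eed-MADM.

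Tbx1, at chr16:18580979-18590671 on the minus strand, is known for its part in the pharyngeal apparatus and the outflow tract of the heart. It had no read in any green library at E13, with a limit of 0.151 CPM over the 4 cKO-Eed-MADM libraries. At E16 the 3 control libraries still held none, and Eed-MADM held 3 and 5 reads in 2 of 5 libraries. The cKO-Eed-MADM libraries held 67, 63, 100 and 16 reads, or 13.5, 10.5, 18.7 and 3.14 CPM, all above the other groups. Tbx1 was at least 60.5-fold higher in cKO-Eed-MADM than in control-MADM (edgeR adjusted p = 0.00262) and 5.10 log2 units higher than in Eed-MADM (SE 1.00, edgeR adjusted p = 0.00314).

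At P0 the Tbx1 reads were 14, 0, 2, 0 and 0 in control-MADM, and 20, 3, 2 and 20 in 4 of 9 Eed-MADM libraries. In cKO-Eed-MADM the libraries held 58, 4, 28 and 43 reads, or 10.5, 1.48, 5.46 and 7.56 CPM. One cKO-Eed-MADM library lay below the highest control, so the groups overlapped. The difference from control-MADM was 3.47 log2 units (SE 1.25, edgeR adjusted p = 0.0458), and the call was lost in DESeq2, with no filter, with filterByExpr and when replicate 2, 4, 5 or 6 of control-MADM was left out (adjusted p up to 0.169). Relative to Eed-MADM the difference was 2.61 log2 units (SE 1.00, edgeR adjusted p = 0.0683).

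Tbx15 and Tbx18 are related factors of mesenchyme, known from skeleton, skin and body wall, and Tbx18 is also a marker of pericytes and other mural cells of vessels. Tbx15 lies at chr3:99240381-99354259 on the plus strand. At E13 the green cKO-Eed-MADM libraries held 6, 8, 0 and 7 reads, against none in green control-MADM. At E16 no green control library and 1 of 5 green Eed-MADM libraries (21 reads) held Tbx15. The 2 red control libraries of that age held 7 and 3 reads. The cKO-Eed-MADM libraries held 39, 21, 13 and 44 reads, or 7.84, 3.49, 2.43 and 8.65 CPM, all above the controls, with 1 of them below the single Eed-MADM library at 3.29 CPM. Tbx15 was at least 28.8-fold higher than in control-MADM (edgeR adjusted p = 0.0360), a call that was lost with DESeq2 and when any control library, or replicate 2 or 3 of cKO-Eed-MADM, was left out (adjusted p up to 0.123).

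At P0 Tbx15 reads were 2, 0, 2, 0 and 0 in control-MADM, and the Eed-MADM libraries had a median of 0.407 and a highest value of 2.22 CPM. Libraries of cKO-Eed-MADM held 68, 23, 88 and 80 reads, or 12.3, 8.50, 17.2 and 14.1 CPM, with no overlap with the other groups. The difference was 6.32 log2 units from control-MADM (SE 0.93, edgeR adjusted p = 2.15e-05) and 4.16 from Eed-MADM (SE 0.64, edgeR adjusted p = 5.06e-05). Eed-MADM differed from control-MADM by 2.15 log2 units (SE 0.89, edgeR adjusted p = 0.212).

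Tbx18 lies at chr9:87702800-87731260 on the minus strand. At E16 it was read in 1 of 3 control libraries (4 reads), 1 of 5 Eed-MADM libraries (5 reads) and 3 of 4 cKO-Eed-MADM libraries (16, 52 and 5 reads), and it stayed under the filter. At P0 the control libraries held 0, 2, 0, 3 and 0 reads, and the Eed-MADM libraries had a median of 0.763 and a highest value of 2.72 CPM. Libraries of cKO-Eed-MADM held 22, 19, 50 and 57 reads, or 3.98, 7.02, 9.75 and 10.0 CPM, all above the other groups. The difference was 5.22 log2 units from control-MADM (SE 0.94, edgeR adjusted p = 0.000214) and 2.68 from Eed-MADM (SE 0.65, edgeR adjusted p = 0.00457). That between Eed-MADM and control-MADM was 2.53 (SE 0.87, edgeR adjusted p = 0.138).

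Tbx20, at chr9:24718138-24774303 on the minus strand, is a factor of heart muscle and of some motor neurons of the hindbrain. From E13 to P0 it had no read in any control library. In cKO-Eed-MADM it had 1, 4, 0 and 0 reads at E13, 6, 9, 0 and 0 at E16 and 1, 0, 3 and 2 at P0. In Eed-MADM it was read only at P0, with 10 and 6 reads in 2 of 9 libraries. All these values are within a few reads of zero, and the gene stayed under the filter from E13 on.

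Levels of different genes were compared per kilobase of exon. In cKO-Eed-MADM at P0 the order was Tbx3 with 4.07 CPM per kb ± 1.24 (SD, n = 4), Tbx15 with 3.47 ± 0.965, Tbx5 with 3.34 ± 1.05, Tbx1 with 1.78 ± 1.08, Tbx18 with 1.63 ± 0.598, Tbx2 with 1.59 ± 1.27, Tbx4 with 0.621 ± 1.05 and Tbx20 with 0.0233 ± 0.0208. Every pair of neighbours in that order overlapped in its range over libraries. At E16 the order was Tbx3 with 4.62 CPM per kb ± 0.983 (SD, n = 4), Tbx5 with 3.87 ± 0.859, Tbx1 with 3.26 ± 1.85, Tbx15 with 1.50 ± 0.827, Tbx18 with 0.709 ± 0.933, Tbx2 with 0.292 ± 0.457 and Tbx20 with 0.0563 ± 0.0657, and Tbx4 had no read. Neighbours overlapped here as well. Tbx15 thus stood behind Tbx1 at E16 and ahead of it at P0, and Tbx3 led at both ages.

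Ages were compared within each paradigm from E13 on, in one fit of 9 groups. Within cKO-Eed-MADM from E13 to E16, 2 of the 8 genes were called higher, Tbx1 and Tbx5, where 9.94% of all genes tested were. Tbx1 went from no read to 246 reads in green cells, at least 76.0-fold (edgeR adjusted p = 0.00229), and without replicate 3 of E16 it had too few reads for the test. All 4 red and yellow cKO-Eed-MADM libraries of E13, which were outside this fit, held Tbx1 reads, so the absence at E13 was limited to green libraries. Tbx5 was 3.38 log2 units higher (SE 1.13, edgeR adjusted p = 0.0340), and lost this call with DESeq2 and when replicate 1, 3 or 5 of E13 or replicate 1 or 4 of E16 was left out, with adjusted p up to 0.124. Tbx3 was 1.58 log2 units higher (SE 0.60, edgeR adjusted p = 0.0633) and Tbx15 2.33 (SE 1.09, edgeR adjusted p = 0.144), and for both the libraries of the 2 ages did not overlap. The share of all genes without overlap between these ages was not counted.

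Within cKO-Eed-MADM from E16 to P0, 0 of the 8 were called by edgeR or DESeq2, with 9.58% of all genes tested called higher and 4120 genes at an unadjusted p under 0.05. The differences were -0.91 log2 units for Tbx1, -0.23 for Tbx3, -0.26 for Tbx5 and 1.17 for Tbx15 (SE 1.18, 0.58, 1.01 and 1.01), and the libraries of the 2 ages overlapped for each. Within Eed-MADM from E13 to E16 Tbx3 was called higher, at least 5.33-fold over 2 libraries with no read (edgeR adjusted p = 0.00953, background 9.99%). The call was lost without either of the 2 Eed-MADM libraries of E13 and with all green libraries. From E16 to P0 no member was called in Eed-MADM by either tool (background 12.1%, 4627 genes at an unadjusted p under 0.05).

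Within control-MADM no member was called higher from E13 to E16 (background 8.44%, 4053 genes at an unadjusted p under 0.05, 0 called by DESeq2) or from E16 to P0 (background 8.31%). One was called lower from E16 to P0, Tbx3, where 5.77% of all genes tested were (edgeR adjusted p = 0.00999). That call rests on the 9 reads of a single E16 control library, and it was gone without that library.

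At E12 the picture differed. Reads of the 8 genes were present in 40% of gene and library pairs in control-MADM, 40.6% in Eed-MADM and 53.1% of them in cKO-Eed-MADM. Of the 8 genes 6 were tested and 0 were called in any of the 3 comparisons by edgeR or DESeq2, and edgeR called 0% of all genes tested as higher in each. Before adjustment, p was under 0.05 for 1282 genes in cKO-Eed-MADM against control-MADM, for 685 in Eed-MADM against control-MADM and for 1316 in cKO-Eed-MADM against Eed-MADM. For some genes a single library carried most of the reads of its group. A control library held 42 of the 52 control reads of Tbx15 and 29 of the 42 of Tbx18, and 1 Eed-MADM library held 58 of the 62 Eed-MADM reads of Tbx3. Tbx5, on the other hand, had no read in the 4 cKO-Eed-MADM libraries and 73 in Eed-MADM. The summed level of 8 meningeal fibroblast markers at this age ran from 34.9 to 1429 CPM in control-MADM, from 38.9 to 1818 CPM in Eed-MADM and from 31.5 to 2517 CPM in cKO-Eed-MADM, against 1.64 to 65.7 CPM at E13, and its part in the T-box reads of E12 was not tested.

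Several of the 8 genes are also expressed by cells around vessels and in the meninges, so marker genes of such cells were set beside them. In bulk samples fewer cells of a type and less RNA per cell cannot be told apart. At E16 the 10 mural cell markers summed to 14.7 to 34.9 CPM in control-MADM, 10.9 to 24.5 CPM in Eed-MADM and 7.04 to 63.1 CPM in cKO-Eed-MADM. Of these markers 4 were tested and 0 were called in cKO-Eed-MADM against control-MADM. Abcc9 and Anpep had no read in cKO-Eed-MADM, Acta2 none in control-MADM and Kcnj8 none in Eed-MADM. The cKO-Eed-MADM library with the lowest sum, 7.04 CPM and below every control, held Tbx3 at 26.6 CPM, Tbx5 at 23.1 CPM, Tbx1 at 13.5 CPM and Tbx15 at 7.84 CPM, and no Tbx18. The same library had the highest meningeal fibroblast sum of E16, 37.4 CPM, and microglia markers at 41.6 CPM against at most 8.68 CPM in control-MADM.

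At P0 the mural markers summed to 63.3 to 198 CPM in control-MADM, 43.5 to 218 CPM in Eed-MADM and 89.8 to 352 CPM in cKO-Eed-MADM, and 1 of the 5 tested was called, Notch3 (1.64 log2 units higher, SE 0.39, edgeR adjusted p = 0.00296). Abcc9 had no read in cKO-Eed-MADM, and Kcnj8 and Anpep had none in control-MADM. The cKO-Eed-MADM library with 89.8 CPM, within the range of the controls, held Tbx3 at 29.2 CPM, Tbx5 at 12.6 CPM, Tbx15 at 8.50 CPM and Tbx18 at 7.02 CPM. Its microglia markers stood at 236 CPM, against at most 39.2 CPM in control-MADM.

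The 8 meningeal fibroblast markers summed to 4.59 to 9.30 CPM in control-MADM at E16, 7.84 to 25.2 CPM in Eed-MADM and 17.9 to 37.4 CPM in cKO-Eed-MADM. In cKO-Eed-MADM against control-MADM 2 of 4 tested were called higher, Pdgfra (6.80 log2 units, SE 1.68, edgeR adjusted p = 0.0139) and Dcn (3.29, SE 0.96, edgeR adjusted p = 0.0387). Slc6a13 had no read in cKO-Eed-MADM, and Lum, Ogn and Slc6a13 had none in control-MADM. At P0 the sums were 53.5 to 124 CPM, 43.7 to 143 CPM and 122 to 303 CPM, and 4 of 5 tested were called higher, Dcn (4.70 log2 units, SE 0.67, edgeR adjusted p = 1.36e-05), Col1a2, Col1a1 and Col3a1. The cKO-Eed-MADM library with 122 CPM, under the highest control, is the same that had the lowest mural sum at P0.

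Microglia markers also moved, with 2 of 5 tested higher in cKO-Eed-MADM than in control-MADM at E16 (Cx3cr1 and Csf1r) and 7 of 7 at P0, where their sum ran from 8.37 to 39.2 CPM in control-MADM and from 159 to 390 CPM in cKO-Eed-MADM. Of the endothelial markers 1 was tested at either age and 0 were called by edgeR. Of the red blood cell markers 1 of 5 tested was higher at E16 (Hba-a2) and 0 of 5 were called at P0. In Eed-MADM against control-MADM 0 markers of these 5 cell types were called at E16 or P0. The microglia sums of Eed-MADM still reached above every control. They ran from 0.345 to 35.5 CPM at E16, against 2.48 to 8.68 CPM in control-MADM. At P0 they ran from 2.29 to 163 CPM, with a median of 31.9 CPM. The part of such cells in the cKO-Eed-MADM and Eed-MADM levels of the T-box genes was not tested beyond these values.

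**Figure D3:**
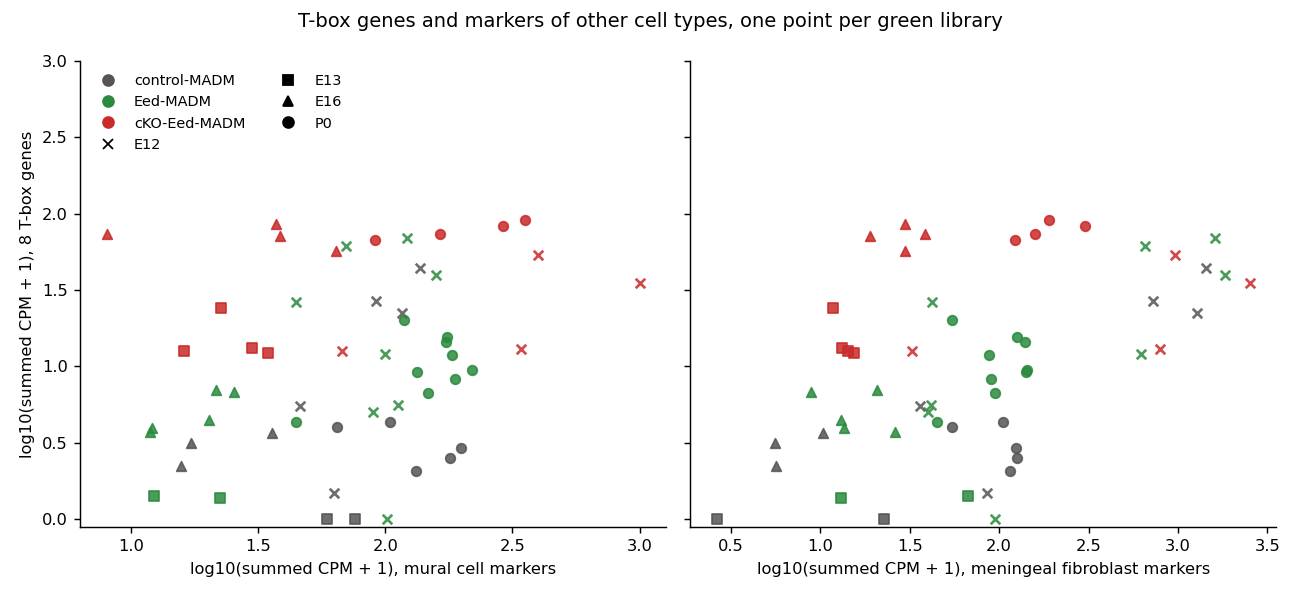
Summed level of the 8 T-box genes against summed mural cell markers and summed meningeal fibroblast markers in each green library, as log10(CPM + 1) on both axes. At E16 and P0 the cKO-Eed-MADM libraries lie above the other libraries of those ages on the T-box axis (56.4 to 90.1 CPM), a level that some Eed-MADM libraries of E12 also reached (up to 67.9 CPM), over mural sums that overlap those of the controls at both ages, and over meningeal sums that at E16 lie wholly above the controls (17.9 to 37.4 against 4.59 to 9.30 CPM).

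The mouse list holds 9 further T-box genes. Of these 9, 4 were tested (Tbx6, Mga, Tbr1 and Eomes), and none was called higher in cKO-Eed-MADM against control-MADM at E16 or P0. Eomes, the gene of intermediate progenitors, fell from 188 CPM ± 13.5 (SD, n = 3) in control-MADM at E16 to 43.5 CPM ± 9.61 (SD, n = 4) in cKO-Eed-MADM, by 2.11 log2 units (SE 0.24, edgeR adjusted p = 1.11e-05). At P0 Eomes fell by 1.54 log2 units (SE 0.37, edgeR adjusted p = 0.00405), from 98.8 to 33.8 CPM. Tbr1, a factor of deep layer neurons, stood at 299 CPM ± 16.9 (SD, n = 3) and 306 CPM ± 31.0 (SD, n = 4) at E16, and fell by 0.77 log2 units at P0 (SE 0.21, edgeR adjusted p = 0.00990). Mga, which pairs a T-box with a second DNA binding domain, stood at 47.7 CPM ± 5.01 (SD, n = 5) in control-MADM and 62.0 CPM ± 11.7 (SD, n = 4) in cKO-Eed-MADM at P0 and was not called.

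Tbx6 was read in all 5 control libraries at P0, at 3.63 CPM ± 3.61 (SD, n = 5), and at 2.60 CPM ± 2.27 (SD, n = 4) in cKO-Eed-MADM. T, Tbx10, Tbx19 and Tbx22 had between 0 and 9 reads in any group at E16 and P0, and T was read in 3 of 4 cKO-Eed-MADM libraries at P0 with 8 reads in all. Tbx21, a factor of T cells, had 34 reads over the control libraries at P0 and 17 over the cKO-Eed-MADM libraries, and did not enter the test. Reads of T-box genes that the cortex does not normally use were therefore present in cKO-Eed-MADM for some of the family and near zero for others.

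Genes that work with T-box factors in the heart were compared as a list of 10. At E16, 4 were tested in cKO-Eed-MADM against control-MADM, with 3 higher and 1 lower, where 6.16% of all genes tested were called higher. Nkx2-5, the homeobox partner of Tbx5 and Tbx20, was at least 59.0-fold higher, Gata4 at least 89.5-fold and Gata6 at least 34.4-fold, with no read of the 3 in the control libraries (edgeR adjusted p = 0.000323, 0.000382 and 0.00663). Mef2c, which cortical neurons also express, fell by 1.10 log2 units (SE 0.17, edgeR adjusted p = 0.000245). The median over the 4 tested was 8.50 log2 units, or 5.49 with genes absent from the controls taken at their lower bound. Genes with no control read passed the filter on counts through the mutant paradigms. The median was therefore high by selection and is not set against that of all genes. At P0, where 14.2% of all genes tested were called higher, 4 of 6 tested were higher (Nkx2-5, Gata4, Hand2 and Gata6, at least 253-fold, 296-fold, 138-fold and 213-fold) and Mef2c was lower (-1.75 log2 units, SE 0.58, edgeR adjusted p = 0.0372). The median was 9.44 log2 units, or 7.42 with such genes at their bound.

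In Eed-MADM at P0, where 1.52% of all genes tested were called higher, 2 of 6 tested partners were higher than in control-MADM, Nkx2-5 (at least 46.1-fold, edgeR adjusted p = 3.45e-05) and Gata6 (at least 21.03-fold, edgeR adjusted p = 0.00601). Of 8 genes of the contractile machinery of the heart, 1 was tested at E16 and not called, and 2 were tested and higher in cKO-Eed-MADM at P0, against 14.2% of all genes tested. These were Ryr2 (2.95 log2 units, SE 0.63, edgeR adjusted p = 0.00126), a calcium channel that neurons express as well, and Myh6 (2.99, SE 0.78, edgeR adjusted p = 0.00641), the atrial myosin heavy chain, at 5.84 CPM ± 3.61 (SD, n = 4).

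Of 8 limb and somite partners, 5 were tested in cKO-Eed-MADM against control-MADM. At E16, 2 were higher, Uncx (107 CPM ± 35.2, SD, n = 4, at least 565-fold, edgeR adjusted p = 1.14e-05), a homeobox gene of somites, and Shox2 (6.16 log2 units, SE 1.33, edgeR adjusted p = 0.00524), a homeobox gene of limb and heart. At P0, 3 were higher, Shox2, Uncx and Prrx1 (7.76, 6.41 and 1.70 log2 units, SE 1.00, 0.99 and 0.42). The median over the list was 1.52 log2 units at E16 and 1.70 at P0. Over all genes tested, 6.16% were called higher at E16 and 14.2% at P0, and in every list a gene with no control read was tested only through the paradigm that held it. Of 10 signals and factors that act upstream of T-box genes in other tissues, 1 was tested and higher at E16, Bmp7 (2.67 log2 units, SE 0.79, edgeR adjusted p = 0.0397), and 4 of 4 tested were higher at P0, Foxa2 (at least 181-fold), Foxc1, Aldh1a2 and Bmp7 (4.14, 3.47 and 1.40 log2 units, SE 0.80, 0.95 and 0.39).

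Tbx2 and Tbx3 are known to repress a small set of genes that includes inhibitors of the cell cycle. Of 5 such genes 4 were tested in cKO-Eed-MADM against control-MADM, and 3 were higher at both ages, against 6.16% of all genes tested at E16 and 14.2% at P0. A gene with no control read entered the test through the mutant paradigms. Any action of Tbx2 or Tbx3 on these genes was not tested. At E16 Cdkn1a was 3.88 log2 units higher (SE 0.37, edgeR adjusted p = 2.52e-06), Cdkn2b at least 99.6-fold (edgeR adjusted p = 0.000651) and Cdkn2a at least 96.9-fold (edgeR adjusted p = 0.00259). At P0 Cdkn1a was 4.64 log2 units higher (SE 0.42), Cdkn2b 5.07 (SE 0.52) and Cdkn2a at least 321-fold. In Eed-MADM at P0 Cdkn2a was at least 27.8-fold higher and Cdkn1a 1.51 log2 units higher than in control-MADM (SE 0.34, edgeR adjusted p = 0.0297). Cdkn2b was not called in that comparison, at 3.31 CPM ± 1.51 (SD, n = 9) against 1.22 CPM ± 0.722 (SD, n = 5). Of the other two genes of the list neither was called against control-MADM.

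Of 10 cortical identity genes all were tested, and 6 were lower in cKO-Eed-MADM than in control-MADM at both E16 and P0. The share of all genes tested that were called lower is not reported here, so this count is a description. At E16 Emx1 fell by 1.69 log2 units (SE 0.18), Neurod6 by 1.38 (SE 0.15) and Neurod2 by 1.43 (SE 0.18), and Sox2 was higher by 1.50 (SE 0.41, edgeR adjusted p = 0.0270). In Eed-MADM none was called against control-MADM at either age by edgeR. The median over the list was -1.31 log2 units in cKO-Eed-MADM at E16 and -1.61 at P0, against 0.00115 and -0.00778 over all genes tested.

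Genes that flank the T-box genes were examined next. Within 200 kb of the 8 genes the annotation holds 56 other genes. At E16, 11 of them were tested in cKO-Eed-MADM against control-MADM and 0 were called by edgeR. At P0, 13 were tested, 0 were higher and 2 were lower, both near Tbx1, namely Sept5 by 0.64 log2 units (edgeR adjusted p = 0.0350) and Cdc45 by 1.32 (edgeR adjusted p = 0.0118). The share of all genes called lower at P0 is not reported here. Bcas3, the nearest tested neighbour of Tbx2 at 6.49 kb, stood at 35.5 CPM where Eed was deleted throughout and at 42.9 CPM in control-MADM at P0 (edgeR adjusted p = 0.404).

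Noncoding transcripts at these loci were under the filter and were picked after their values were seen. Gm43050, which starts 0.748 kb from Tbx5 between it and Tbx3, had 79 reads in cKO-Eed-MADM at P0 and none in control-MADM. Tbx3os1, antisense to Tbx3, had 41 reads against 2, and Gm43120, antisense to Tbx15, had 21 against none. The library type does not mark the strand, so reads where sense and antisense exons overlap are not counted for either gene. The count without regard to strand held 97.6% of the reads that both strand columns gave for Tbx3 in cKO-Eed-MADM at E16 and P0, 81.0% for Tbx18 and 100% for the other 6 genes.

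Over the 38 green libraries of E13, E16 and P0 the genes most like a member were found by Pearson's r of log2(CPM + 0.5) among 13926 genes. These libraries differ in paradigm and age, which all genes share, so r is a description. For Tbx3 the nearest were Hoxc9 (r = 0.942), Vax2 (0.933) and Hoxa7 (0.931). For Tbx5 Hoxa2 (0.914) and Six3 (0.890) were among them, and for Tbx1 they were Hoxa3 (0.851), Hoxc12 (0.841) and Hoxa9 (0.833). For Tbx15 they were Gata4 (0.905), Hoxd10 (0.890) and Hoxd8 (0.880), and for Tbx18 Hlx (0.830), Hoxc11 (0.810) and Phlda3 (0.808). Hox genes, the regulators of position along the body axis, were among the nearest genes of each of these 5 members. Values were lower for Tbx2 (Usp24 with 0.698 and Ctsf with 0.655 were among its nearest) and for Tbx4 (Dars, Serpinb1a and Itih3, from 0.558 to 0.603). Among the members the highest values were between Tbx5 and Tbx15 (0.840), Tbx3 and Tbx15 (0.798) and Tbx3 and Tbx5 (0.793), and Tbx2 and Tbx4 reached at most 0.364 and 0.449 with any other member.

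**Figure D4:**
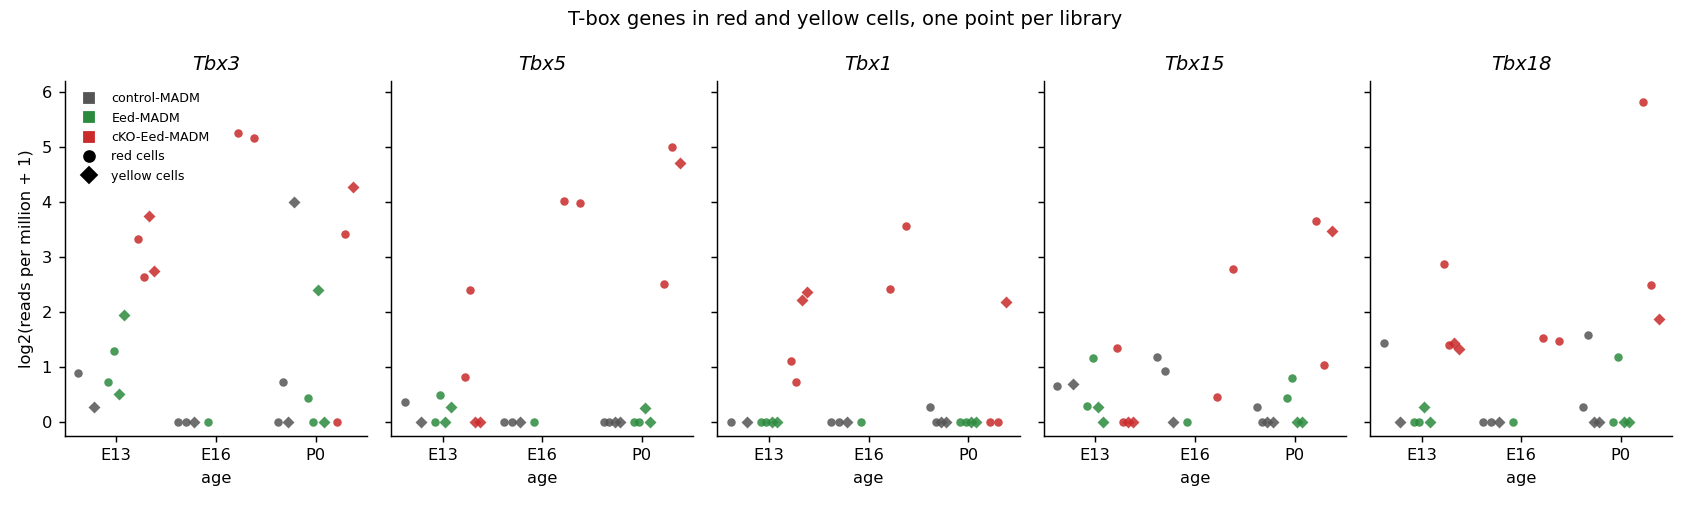
RPM (reads of a gene per 1000000 reads on genes, with no further scaling) of Tbx3, Tbx5, Tbx1, Tbx15 and Tbx18 in each red and yellow library at E13, E16 and P0, as log2(RPM + 1), by paradigm. In cKO-Eed-MADM, where red and yellow cells also lack Eed, both E16 libraries hold Tbx3 at 34.9 to 37.4 RPM and the 3 control libraries of that age hold none.

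Red and yellow cells were not part of the comparisons above. In cKO-Eed-MADM they lack Eed as the green cells do, and in control-MADM they are Eed+/+. At E16, 2 cKO-Eed-MADM libraries of red cells held Tbx3 at 34.9 and 37.4 reads per 1000000 on genes (RPM), and the 3 control libraries held none. At E13 the 4 red and yellow cKO-Eed-MADM libraries held Tbx3 at 5.24 to 12.4 RPM, against 0.203 and 0.849 in the 2 control libraries. At P0 the 3 cKO-Eed-MADM libraries held 0 to 18.3 RPM and the 4 control libraries 0 to 14.9, so that the groups overlapped. In Eed-MADM the red and yellow cells are Eed+/+ and Eed+/-, and at P0 their 4 libraries held Tbx3 at 0 to 4.31 RPM, with a median of 0.177.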

How the data were processed

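Smart-Seq2 libraries of sorted MADM-labelled cortical cells (116, of them 68 green) were read as unnormalized counts per gene, which the authors made with STAR on mm10 from uniquely aligned reads. The annotation release was not given in the sources used here. The deposited tables hold an unstranded count (used here) and 2 strand-specific counts, and 0 columns of other samples. Reads outside genes or in several genes (13.4% to 40.1% of unique reads, median 26.3% of 55 libraries) were left out. No libraries held identical values. Of 53379 gene IDs, 53274 matched GENCODE M21.

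Green libraries with at least 1000000 unique reads that were at least 60% of all reads were kept. Genes with a mean count over 1 (E12) or over 10 (later ages) were tested with edgeR 4.0.16 (R 4.3.3) by the robust quasi-likelihood test after TMM scaling, with one fit of 3 paradigms per age and one fit over E13, E16 and P0. These fits tested 18100, 13448, 13359, 14161 and 13926 genes. The scripts were tested on simulated data. P-values were adjusted by Benjamini and Hochberg over all genes tested. Limits for a count of 0 take 3 reads, and 95% intervals of ratios are exact and cover counting error only.

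The 8 members and the gene lists were chosen with earlier results of these data known. The text names all members, the remaining T-box genes, up to 4 called genes per list with the lowest adjusted p, called neighbours within 200 kb and the 3 genes with the highest Pearson's r per member. Values of a few genes that this rule names are not reported here. Alternatives were DESeq2 1.42.0, other scalings and filters, all green libraries, 2-group fits, strand-specific counts, a second threshold (0.1), the newer quasi-likelihood test, the replicate number as a block and each library of groups of 2 to 5 left out. Replicate numbers did not pair the samples. Promoters came from RefSeq (4 of 8 members matched). Figures used matplotlib 3.10.9.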

Additional observations from a re-analysis of the deposited data

Results flagged for a closer look

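A single library stood apart from the others of its group in 20 of the 72 sets of 4 to 10 libraries that were examined. The nominal chance rate of about 1 in 20 sets cannot be relied on at counts this low. In several sets a single library held all reads of the gene, such as Tbx1 in control-MADM at E12 with 2 reads. The 20 sets are therefore a description and are not read as an excess over chance. Most of these were at E12. In control-MADM at E12 they were Tbx1 at 2.25 CPM (replicate 2), Tbx2 at 9.20 CPM and Tbx3 at 14.2 CPM (both replicate 1), Tbx4 at 1.18 CPM and Tbx15 at 24.7 CPM (both replicate 4) and Tbx5 at 1.95 CPM (replicate 3). In Eed-MADM at E12 they were Tbx1 at 12.4 CPM (replicate 8), Tbx2 at 22.1 CPM and Tbx3 at 32.0 CPM (both replicate 7) and Tbx4 at 6.23 CPM (replicate 9). In cKO-Eed-MADM at E12 they were Tbx4 at 1.02 CPM (replicate 3) and Tbx20 at 2.01 CPM (replicate 5).

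At E16 the libraries that stood apart were both of Eed-MADM, Tbx15 at 3.29 CPM in replicate 3 and Tbx18 at 1.14 CPM in replicate 2. At P0 they were Tbx1 at 2.33 CPM, Tbx2 at 2.67 CPM, Tbx4 at 0.860 CPM and Tbx5 at 0.502 CPM in control-MADM (replicates 1, 4, 5 and 6), Tbx5 at 4.13 CPM in replicate 7 of Eed-MADM and Tbx4 at 7.39 CPM in replicate 2 of cKO-Eed-MADM. In many of these sets the other libraries held no read or a few reads of the gene.

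Green Eed-/- cells differed between the 2 mutant paradigms, as tested directly with edgeR. At E16 the difference, cKO-Eed-MADM minus Eed-MADM, was 5.10 log2 units for Tbx1, 4.30 for Tbx3 and 4.69 for Tbx5. At P0 it was 3.08 for Tbx3, 4.15 for Tbx5, 4.16 for Tbx15 and 2.68 for Tbx18.

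Red and yellow cKO-Eed-MADM libraries, which no test used, lay above every red and yellow control library of their age for some members. Other members overlapped the controls, such as Tbx1 and Tbx3 at P0. Tbx15 at E16 did so too, with a lowest value of 0.378 against a highest control of 1.26 RPM. The share of all genes that separated in this way was not counted. The lowest such library held Tbx3 at 5.24 and Tbx1 at 0.654 RPM (reads per 1000000 on genes) at E13. At E16 it held Tbx3 at 34.9, Tbx5 at 14.8, Tbx1 at 4.35 and Tbx18 at 1.78 RPM, against 0 of these in the controls. At P0 it held Tbx5 at 4.67, Tbx15 at 1.05 and Tbx18 at 2.66 RPM, against highest control values of 0, 0.215 and 1.99 RPM.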

How the results depend on the processing

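Of 187 counts of called members under alternatives other than leaving out a library, 167 stayed within 1.5 times the main count. Among these are counts of 0 that stayed 0, as in all 12 alternatives of each comparison at E12. This number therefore does not measure how firm the calls were. The calls of Tbx3 and Tbx5 in cKO-Eed-MADM against control-MADM at E16 and P0, and of Tbx3 in Eed-MADM at P0 (adjusted p from 1.56e-08 to 0.00757), held in every alternative in which the gene was tested. At E13, cKO-Eed-MADM against control-MADM went from 0 to 1 member (Tbx3) at a threshold of 0.1, with DESeq2, no filter, all green libraries, 2-group fits, strand column 4 and the newer quasi-likelihood test, and against Eed-MADM from 0 to 1 with DESeq2, no filter and 2-group fits. Strand column 3 gave 2 members at P0 in cKO-Eed-MADM against each other paradigm, and strand column 4 gave 1, and 2 at E16 against control-MADM, where fewer members had counts over the filter. With all green libraries E13 to E16 gave 1 in cKO-Eed-MADM and 0 in Eed-MADM. With no filter E16 to P0 gave 1 (Tbx4) in both mutant paradigms. A threshold of 0.1 gave 1 (Tbx3) from E13 to E16 in control-MADM.

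With 1 library left out the counts ran from 0 to 1 at E13 (cKO-Eed-MADM against control-MADM), from 3 to 6 at P0 against control-MADM and from 3 to 5 against Eed-MADM. From E13 to E16 they ran from 1 to 2 in cKO-Eed-MADM, from 0 to 1 in Eed-MADM and from 0 to 1 in control-MADM, and from E16 to P0 from 0 to 1 in Eed-MADM and in control-MADM. Directions turned only for members that were not called in the main fit, within Eed-MADM. With 1 library left out, Tbx15 from E13 to E16 ran from -3.27 (without replicate 3 of E16) to 4.96 log2 units. From E16 to P0, Tbx5 ran from -0.0403 to 0.95 (below 0 without replicate 1 or 2 of E16) and Tbx15 from -0.38 to 4.87 (without replicate 3 of E16). Without that replicate the turned direction of Tbx15 was called (edgeR adjusted p = 0.0220). Tbx15 was 0.050 without TMM. The cause was not tested.

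Same-numbered libraries correlated above 0.1 in 3 of 11 pairs at E12, 0 of 3 at E13, 2 of 10 at E16 and 3 of 12 at P0, so numbers were not taken as pairs. The replicate block changed no count of called members (4 at E16 and 5 at P0 in cKO-Eed-MADM against control-MADM), and turned Tbx15 from E13 to E16 (-0.51) and from E16 to P0 (0.77) and Tbx5 from E16 to P0 (-0.68), all in Eed-MADM. Over all genes DESeq2 called 289 at E13 in cKO-Eed-MADM against control-MADM where edgeR called 5, and in Eed-MADM against control-MADM 231 against 34 at E16 and 608 against 248 at P0. Without TMM the median of all genes from E16 to P0 in Eed-MADM moved to 0.13, and the share of calls that were higher went from 57.5% to 72.8%. Fits of 2 groups had no tested member in 5 comparisons.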
